A study of Mus musculus with 8 samples.

Results

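Chromatin accessibility of GMP-MoP cells was compared with that of proNeu2 cells, using the 2 GMP-MoP and 2 proNeu2 libraries among the 8 ATAC-seq libraries of the series. The other 4 libraries, 2 of cMoP and 2 of proNeu1 cells, entered the estimate of the spread and served for comparison. All groups were sorted mouse bone marrow progenitor cells, and the labels set them apart by the sorted population alone. The sources used here give no strain, age, treatment or sort gate, and do not say whether the 2 replicates of a group came from separate animals. The p-values therefore reflect the spread of these libraries, part of which may be technical. The series presents GMP-MoP as cells formed from proNeu1 by an aberrant route, and proNeu2 is taken here as the neutrophilic alternative to it. ATAC-seq reads open DNA through the insertions of a transposase, and each library gave a read count for the same 61196 genomic regions, of which 47506 had enough reads to be tested.

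Monocytes and neutrophils arise from shared granulocyte and monocyte progenitors. The transcription factors PU.1 and C/EBPα act in both branches, IRF8 and KLF4 act in monocyte development, and GFI1 and C/EBPε act in neutrophil development. Neutrophil precursors make their granules in waves: primary granules with myeloperoxidase and serine proteases come early, and secondary and tertiary granules with lactoferrin, cathelicidin and gelatinases come later. In usual nomenclature cMoP denotes a monocyte-committed progenitor, and proNeu1 and proNeu2 denote successive neutrophil-committed progenitors.

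Totals over the regions were 1388525 and 1715928 counts in the GMP-MoP libraries, against 1785907 and 1631168 in the proNeu2 libraries, and the median region held 11 and 15 counts, against 12 and 11. Regions with no count made up 1.53% and 0.747% of the GMP-MoP libraries and 4.26% and 4.65% of the proNeu2 libraries. Levels are given in CPM, which are counts brought to the same library size by TMM, for replicate 1 and then replicate 2. A count of 3 corresponds to 2.18 and 1.7 CPM in the GMP-MoP libraries and to 1.82 and 1.99 CPM in the proNeu2 libraries. A region is called higher or lower where the adjusted p of edgeR's quasi-likelihood test (Benjamini-Hochberg over all tested regions) was under 0.05. Log2 fold changes are of GMP-MoP over proNeu2, with the standard error (SE). An alternative scaling fitted an offset to the level of the regions in each library by loess. Gene links are to the closest protein-coding gene up to 50 kb away and do not show what gene a region acts on. The Spearman correlation across regions was 0.707 to 0.747 between GMP-MoP and proNeu2 libraries, against 0.895 within GMP-MoP and 0.941 within proNeu2.

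The start regions of 3 neutrophil granule and alarmin genes that were lower in GMP-MoP, and of 3 genes that were higher, show the DNA behind the values that follow. The sequences run from 250 bases before to 50 bases after the RefSeq start, on the gene's strand (GRCm38.p6, the assembly called mm10). Capitals mark matches on either strand to GAGGAAG, a core of PU.1 and ETS sites, or to TTGCNNAA, a core of C/EBP sites.
S100a9, chr3:90695672-90695971, minus strand: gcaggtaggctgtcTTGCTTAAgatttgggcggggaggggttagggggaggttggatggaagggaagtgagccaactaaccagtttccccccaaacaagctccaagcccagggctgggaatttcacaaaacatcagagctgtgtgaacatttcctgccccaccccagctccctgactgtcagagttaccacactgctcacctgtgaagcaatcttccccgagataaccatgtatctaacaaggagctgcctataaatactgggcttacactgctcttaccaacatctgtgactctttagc
Ngp, chr9:110419558-110419857, plus strand: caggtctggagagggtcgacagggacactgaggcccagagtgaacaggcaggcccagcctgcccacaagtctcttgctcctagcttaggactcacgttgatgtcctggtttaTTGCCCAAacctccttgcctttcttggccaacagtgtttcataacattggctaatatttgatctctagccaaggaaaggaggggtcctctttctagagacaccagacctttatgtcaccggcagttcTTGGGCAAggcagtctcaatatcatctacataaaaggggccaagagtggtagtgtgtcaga
Camp, chr9:109849407-109849706, minus strand: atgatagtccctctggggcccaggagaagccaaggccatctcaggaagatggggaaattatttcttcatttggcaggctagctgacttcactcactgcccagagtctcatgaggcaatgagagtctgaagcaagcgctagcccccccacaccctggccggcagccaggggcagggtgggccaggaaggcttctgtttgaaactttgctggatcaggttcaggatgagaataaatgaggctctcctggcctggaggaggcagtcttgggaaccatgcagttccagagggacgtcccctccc
Irf8, chr8:120736108-120736407, plus strand: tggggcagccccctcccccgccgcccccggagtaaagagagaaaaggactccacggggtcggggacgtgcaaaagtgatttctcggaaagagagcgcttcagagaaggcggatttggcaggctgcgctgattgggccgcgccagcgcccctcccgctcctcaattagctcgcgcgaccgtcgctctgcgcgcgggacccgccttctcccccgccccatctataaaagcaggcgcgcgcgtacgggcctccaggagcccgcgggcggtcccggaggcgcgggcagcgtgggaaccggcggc
Tlr9, chr9:106222348-106222647, plus strand: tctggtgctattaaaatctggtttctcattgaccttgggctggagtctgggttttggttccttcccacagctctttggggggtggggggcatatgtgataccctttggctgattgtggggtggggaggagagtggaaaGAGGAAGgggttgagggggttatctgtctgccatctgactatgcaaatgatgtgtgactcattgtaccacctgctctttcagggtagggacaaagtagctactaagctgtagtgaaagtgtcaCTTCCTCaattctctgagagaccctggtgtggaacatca
Cst7, chr2:150570165-150570464, plus strand: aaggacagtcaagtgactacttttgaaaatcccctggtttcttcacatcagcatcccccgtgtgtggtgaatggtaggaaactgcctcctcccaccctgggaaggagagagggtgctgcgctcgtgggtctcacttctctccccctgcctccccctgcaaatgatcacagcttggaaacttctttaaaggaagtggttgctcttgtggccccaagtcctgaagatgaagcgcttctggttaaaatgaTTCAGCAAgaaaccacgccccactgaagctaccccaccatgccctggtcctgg
The S100a9 sequence held 1 match to the C/EBP core and the Ngp sequence held 2, while the Camp and Irf8 sequences held no match to either core. The Tlr9 sequence held 2 matches to the PU.1 and ETS core, and the Cst7 sequence held 1 match to the C/EBP core. Among 21254 gene starts in the table, 13.6% held the PU.1 and ETS core and 10.2% held the C/EBP core. A match describes the letters and not a bound site.

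Regions of later granule and neutrophil maturation genes were more often lower than higher in GMP-MoP relative to proNeu2. Of 64 tested regions linked to 24 of the 27 listed genes, 30 were lower and 6 higher, against 19.2% lower and 20.0% higher (39.2% in either direction) among all tested regions. The median log2 fold change was -0.78, against 0.04 over all regions. Of the genes, 18 had lower regions alone, 2 (Mgam and Mmp8) had higher regions alone, and Ltf had both.

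S100a9, which encodes a subunit of the alarmin calprotectin, had 5.81 and 5.67 CPM at its start region (chr3:90695381-90696322) in GMP-MoP, against 60.2 and 69.0 CPM in proNeu2. This is a log2 fold change of -3.47 (SE 0.283, adjusted p = 5.15e-24). S100a8, the partner subunit, had 24.0 and 27.8 CPM at its start in GMP-MoP and 76.0 and 91.6 CPM in proNeu2, a log2 fold change of -1.68 (SE 0.195, adjusted p = 1.62e-13). The GMP-MoP and proNeu2 values did not overlap at either gene, as at 70.0% of all tested regions. Ngp, a neutrophilic granule protein, had 2.90 and 2.83 CPM at its start in GMP-MoP (chr9:110419368-110420176), close to the level of 3 counts, against 40.1 and 40.5 CPM in proNeu2 (log2 fold change -3.78, SE 0.369, adjusted p = 3.68e-18). Camp, the cathelicidin antimicrobial peptide, had 17.4 and 17.6 CPM at its start in GMP-MoP and 75.4 and 77.0 CPM in proNeu2 (log2 fold change -2.12, SE 0.215, adjusted p = 6.2e-17). All 3 tested Camp regions and both tested Ngp regions were lower.

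Lcn2 and Cd177 were added with their values known. Lcn2, a lipocalin that binds bacterial siderophores, had 2.90 and 7.37 CPM at its start in GMP-MoP, against 39.5 and 45.8 CPM in proNeu2 (log2 fold change -2.96, adjusted p = 1.84e-15). Cd177, a neutrophil surface glycoprotein, had 2.90 and 6.80 CPM at its start in GMP-MoP and 40.1 and 47.1 CPM in proNeu2 (log2 fold change -3.08, adjusted p = 2.22e-16). Itgb2l, which encodes an integrin subunit, had 31.2 and 26.1 CPM in GMP-MoP against 102 and 88.3 CPM in proNeu2 (log2 fold change -1.74, SE 0.187, adjusted p = 1.91e-15). Mmp9, the gelatinase B gene, was lower at all 3 of its tested regions.

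Mmp8, the neutrophil collagenase gene, went the other way, with all 3 of its tested regions higher in GMP-MoP. Its start region, chosen after its values were seen, had 24.7 and 36.3 CPM in GMP-MoP and 10.9 and 9.29 CPM in proNeu2 (log2 fold change 1.61, SE 0.292, adjusted p = 1.83e-06). Its highest-count region had 27.6 and 51.0 CPM in GMP-MoP against 31.0 and 22.6 CPM in proNeu2, so the libraries overlapped (log2 fold change 0.58, SE 0.225, adjusted p = 0.0285). That call was lost without GMP-MoP replicate 2 (adjusted p = 0.95), without proNeu2 replicate 2 (0.301), with the proNeu2 libraries as 1 sample (0.0506) and in DESeq2 (0.267). The highest-level regions of Ltf, which encodes lactoferrin (adjusted p = 0.277), and of the chemokine receptor gene Cxcr2 (adjusted p = 0.256) did not pass the test. Ly6g, Olfm4 and Stfa2 had no tested region. Without GMP-MoP replicate 2 the list had 29 lower calls and 2 higher ones.

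**Figure D1:**
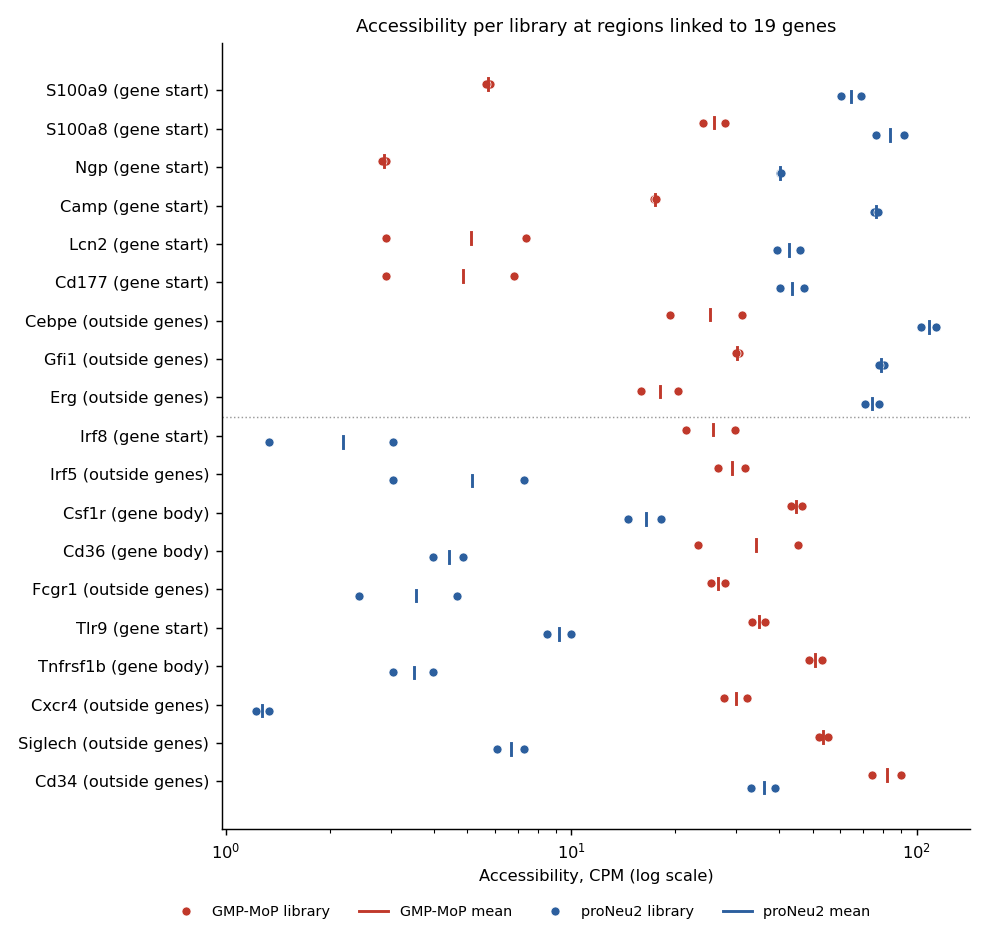
Accessibility in CPM (log axis) at 1 region for each of 19 genes in the GMP-MoP (red) and proNeu2 (blue) libraries. Dots are libraries and ticks are means of 2. The 9 regions above the dotted line were lower in GMP-MoP and the 10 below it higher, and no GMP-MoP library overlapped a proNeu2 library. All 19 regions were drawn because they were called.

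Primary granule genes, which come on earlier, showed no common direction. Of 33 tested regions linked to 11 genes, 8 were higher and 6 lower, with a median log2 fold change of -0.12. These shares were 24.2% and 18.2%, against 20.0% and 19.2% of all tested regions. The higher regions belonged to Ctsc (6 of 8) and Cst7 (2 of 4), and the lower ones to Mpo, Elane, Prtn3, Ms4a3 and Srgn. Mpo, the myeloperoxidase gene, had 77.0 and 62.9 CPM at its start in GMP-MoP, against 103 and 98.2 CPM in proNeu2 (log2 fold change -0.54, SE 0.155, adjusted p = 0.00292). The Mpo call was lost without GMP-MoP replicate 2 (adjusted p = 0.106), without proNeu2 replicate 1 (0.0535), with offsets fitted to the level (0.126) and in DESeq2 (0.076). At the start of Elane, which encodes neutrophil elastase, GMP-MoP had 13.1 and 24.9 CPM and proNeu2 had 35.9 and 28.5 CPM (log2 fold change -0.72, SE 0.254, adjusted p = 0.0167). That call was lost without GMP-MoP replicate 1 (adjusted p = 0.309), without proNeu2 replicate 1 (0.233), with library totals (0.07) and in DESeq2 (0.208).

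Ctsc encodes cathepsin C, which activates granule serine proteases, and its start had 116 and 116 CPM in GMP-MoP, against 73.6 and 67.0 CPM in proNeu2 (log2 fold change 0.72, SE 0.15, adjusted p = 3.34e-05). Cst7 encodes cystatin F, an inhibitor of cathepsin C, and its start had 32.7 and 46.5 CPM in GMP-MoP, against 20.1 and 12.6 CPM in proNeu2 (log2 fold change 1.28, SE 0.248, adjusted p = 7.33e-06). The regions of highest level at Prtn3 (adjusted p = 0.271) and Ctsg (adjusted p = 0.606) did not pass. The split of 8 higher and 6 lower was 8 and 2 when replicate 1 of GMP-MoP was left out and 3 and 6 when its replicate 2 was. It was 5 and 2 without proNeu2 replicate 1 and 5 and 4 without proNeu2 replicate 2. With offsets fitted to the level it was 4 and 4, and with library totals 9 and 3. Among the 25 regions linked within 10 kb, 3 were higher and 6 lower, with a median log2 fold change of -0.26. Within 1 kb of a gene's start or of either end, 2 were higher and 3 lower of 9, with a median of -0.43.

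Regions of neutrophil transcription factor genes were more often lower than higher. Of 70 regions at 10 genes, 21 were lower and 7 higher, with a median log2 fold change of -0.39. Cebpe, which encodes C/EBPε, had 31.2 and 19.3 CPM at its highest-count region (chr14:54705441-54707330, outside genes) in GMP-MoP and 103 and 114 CPM in proNeu2 (log2 fold change -2.13, SE 0.19, adjusted p = 3.92e-21). Both tested Cebpe regions were lower. The highest-count region linked to Gfi1, a transcriptional repressor gene, lay outside genes and 16834 bases from it. That region, chr5:107698458-107699821, had 30.5 and 30.0 CPM in GMP-MoP against 80.3 and 77.7 CPM in proNeu2 (log2 fold change -1.38, SE 0.191, adjusted p = 3.8e-10). A different Gfi1-linked region, chosen after its values were seen, had 10.9 and 11.3 CPM in GMP-MoP and 2.43 and 2.66 CPM in proNeu2 (log2 fold change 2.10, adjusted p = 0.000394).

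Cebpb, the gene of C/EBPβ, was lower at 6 of its 9 regions, and Klf5 at both of its regions. The start of Cebpa, the gene of C/EBPα, had 98.8 and 69.2 CPM in GMP-MoP and 74.8 and 92.3 CPM in proNeu2. Its libraries overlapped and the log2 fold change was -0.01 (SE 0.156, adjusted p = 0.971). A Cebpa-linked region outside genes, at chr7:35098384-35099937 and chosen after its values were seen, had 13.8 and 23.8 CPM in GMP-MoP against 4.26 and 6.64 CPM in proNeu2 (log2 fold change 1.83, adjusted p = 2.71e-05). Cebpd did not pass at its highest-count region (adjusted p = 0.229). Without GMP-MoP replicate 2 or without proNeu2 replicate 1, the higher calls of the list numbered 4.

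Monocyte transcription factor genes were split evenly, by gene. Of 53 regions at 13 genes, 13 were higher and 13 lower, and the median log2 fold change was 0.51. Each share was 24.5%, against 20.0% higher and 19.2% lower among all tested regions. The genes with higher regions alone included Irf4, Irf5, Irf8 and Klf4. Those with lower regions alone were Egr1, Egr2, Id2, Klf2, Nr4a1 and Spi1, and Zeb2 had both.

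Irf8, the gene of interferon regulatory factor 8, was higher at 4 of its 9 regions and lower at 0, also at an unadjusted p under 0.05 and by DESeq2. Its highest-count region, at chr8:120792350-120793557 outside genes, had 40.7 and 42.0 CPM in GMP-MoP and 20.7 and 17.3 CPM in proNeu2 (log2 fold change 1.12, SE 0.237, adjusted p = 4.6e-05). The start region of Irf8 (chr8:120735825-120736872), chosen after its values were seen, had 29.8 and 21.5 CPM in GMP-MoP against 3.04 and 1.33 CPM in proNeu2 (log2 fold change 3.46, SE 0.433, adjusted p = 6.4e-12). The Irf8 start was thus near the level of 3 counts in proNeu2 and not in GMP-MoP. All 4 regions of Irf5, which encodes another interferon regulatory factor, were higher. A region outside genes among them, chosen after its values were seen, had 31.9 and 26.6 CPM in GMP-MoP and 3.04 and 7.30 CPM in proNeu2 (log2 fold change 2.50, adjusted p = 5.99e-10).

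Klf4 had 52.3 and 31.2 CPM at its start in GMP-MoP and 26.1 and 24.6 CPM in proNeu2 (log2 fold change 0.68, SE 0.228, adjusted p = 0.0115). The Klf4 call was lost without GMP-MoP replicate 1 (adjusted p = 0.421), without proNeu2 replicate 2 (0.0782) and in DESeq2 (0.149). Spi1, the gene of PU.1, had 6.54 and 10.8 CPM in GMP-MoP against 35.3 and 35.2 CPM in proNeu2 at a region in the gene body (log2 fold change -1.98, adjusted p = 9.48e-09). Nr4a1, a nuclear receptor gene needed for non-classical monocytes, was lower at 4 of 5 regions. Of these, 1 outside genes had 29.0 and 34.6 CPM in GMP-MoP and 79.0 and 79.7 CPM in proNeu2 (log2 fold change -1.30, adjusted p = 1.87e-09). These Spi1 and Nr4a1 regions were added with their values known. Zeb2 had 21.1 and 25.5 CPM at its start in GMP-MoP against 32.8 and 43.8 CPM in proNeu2 (log2 fold change -0.70, SE 0.233, adjusted p = 0.0113), a call lost without GMP-MoP replicate 1 (adjusted p = 0.0831), without proNeu2 replicate 2 (0.215), with library totals (0.0531) and in DESeq2 (0.15).

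Regions of monocyte and macrophage effector genes were more often higher than lower in GMP-MoP. Of 134 regions at 28 of 30 genes, 41 were higher and 9 lower, and the median log2 fold change was 0.43. These shares were 30.6% and 6.72%, against 20.0% and 19.2% of all tested regions. Of the genes, 15 had higher regions alone, 2 had lower regions alone and 3 had both. The scavenger receptor genes Marco and Msr1 and the gene Ahnak were each higher at 5 regions, of 9, 7 and 9 tested. The split was 28 higher and 13 lower with offsets fitted to the level, 26 and 5 without GMP-MoP replicate 2, and 27 and 4 without proNeu2 replicate 1.

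Csf1r, which encodes the receptor for the macrophage growth factor CSF1, had 46.5 and 43.1 CPM in its gene body in GMP-MoP, against 18.2 and 14.6 CPM in proNeu2 (log2 fold change 1.43, SE 0.241, adjusted p = 2.6e-07). Cd36, a scavenger receptor gene, had 23.2 and 45.4 CPM in GMP-MoP and 4.86 and 3.98 CPM in proNeu2 (log2 fold change 2.97, adjusted p = 1.55e-13). Pld4, which encodes a lysosomal exonuclease, had 35.6 and 25.5 CPM in GMP-MoP and 7.90 and 1.33 CPM in proNeu2 (log2 fold change 2.64, adjusted p = 1.29e-10). Ctss, the cathepsin S gene, had 7.99 and 15.3 CPM in GMP-MoP at a gene body region with 3 counts in all in proNeu2, a ratio of 12.7 (95% exact counting interval 4.03 to 64.3, adjusted p = 1.02e-06). The regions of Cd36, Pld4 and Ctss were added with their values known. Libraries of the groups did not overlap at these 4 regions, as at 70.0% of all tested regions.

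Not all monocyte genes followed. Cx3cr1, the receptor gene for fractalkine, was lower at 3 of 7 regions, and its highest-count region had 31.2 and 26.1 CPM in GMP-MoP against 43.8 and 51.1 CPM in proNeu2 (log2 fold change -0.74, SE 0.213, adjusted p = 0.00308). That call was lost without GMP-MoP replicate 2 (adjusted p = 0.0855), without proNeu2 replicate 2 (0.0654) and in DESeq2 (0.077). The highest-count regions of Ccr2 (adjusted p = 0.821), Ly6c2 (0.467), Ctss (0.314) and F13a1 (0.838) did not pass. C1qa and Ms4a6b had no tested region.

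**Figure D2:**
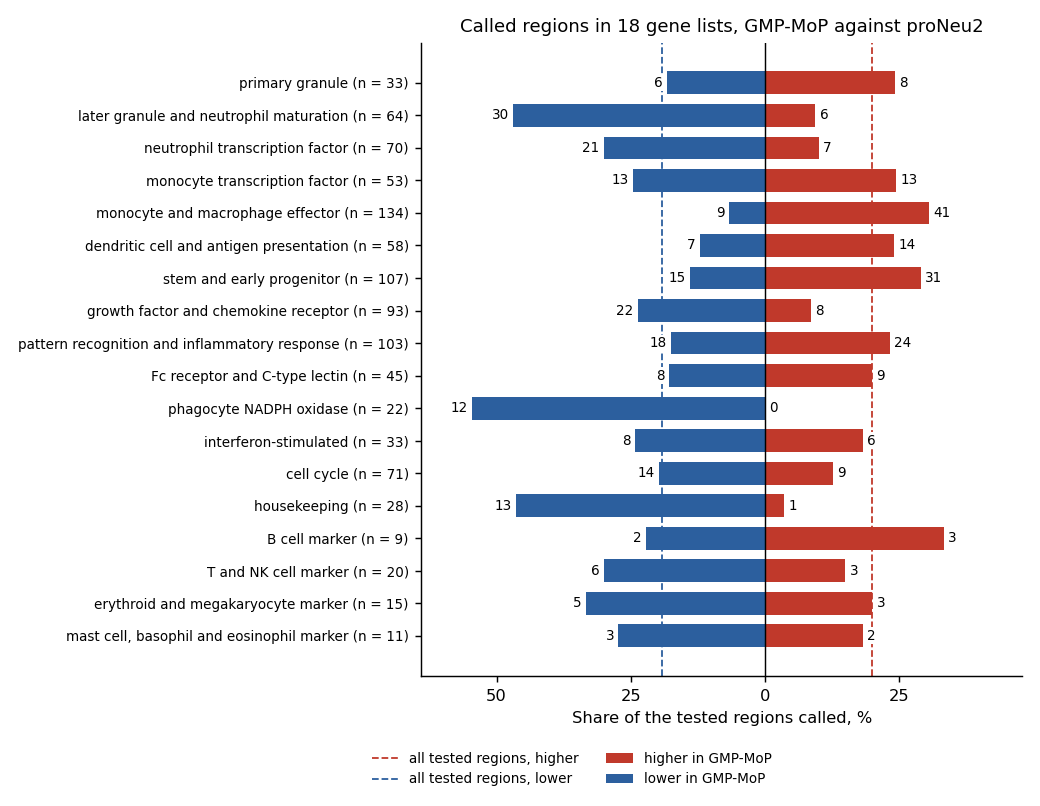
Share of tested regions (%) called higher (right) or lower (left) in GMP-MoP for 18 gene lists, with the number of called regions at each bar and n tested in the labels. Dashed lines are the shares over all tested regions, 20.0% higher and 19.2% lower. Later granule, NADPH oxidase and housekeeping regions lay well to the left, and monocyte effector regions to the right.

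The phagocyte NADPH oxidase, the enzyme that makes superoxide, had 12 of 22 regions lower at its 6 subunit genes and 0 higher, with a median log2 fold change of -0.71. The lower share was 54.5%, against 19.2% of all tested regions, of which 20.0% were higher. At an unadjusted p under 0.05 in edgeR 2 oxidase regions were higher. DESeq2 called 0 higher and 7 lower, and with library totals 2 passed as higher. Rac2, the small GTPase subunit gene, had 43.6 and 33.4 CPM in GMP-MoP and 102 and 97.6 CPM in proNeu2 (log2 fold change -1.39, adjusted p = 7.44e-12). Cyba, the gene of the membrane subunit p22phox, had 37.0 and 21.5 CPM in GMP-MoP against 60.2 and 55.8 CPM in proNeu2 (log2 fold change -1.03, adjusted p = 1.59e-05). Ncf4, a cytosolic subunit gene, had 46.5 and 40.8 CPM in GMP-MoP and 76.0 and 81.6 CPM in proNeu2 (log2 fold change -0.86, adjusted p = 2.89e-05). These 3 regions were picked with their values known. All tested regions of Rac2, Ncf4, Ncf1 and Cyba were lower, while 0 of the 5 regions of Cybb, the gene of the catalytic subunit, were called by edgeR or DESeq2, and 1 of them was higher at an unadjusted p under 0.05. The lower calls numbered 7 without GMP-MoP replicate 2.

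Housekeeping genes were also lower more often than all regions, with 13 of 28 regions lower (46.4%, against 19.2% of all tested regions). Of their regions 1 was higher (3.57%, against 20.0%), and their median log2 fold change was -0.50. Their summed level was 1242.4 and 1104.3 CPM in GMP-MoP, against 1717.8 and 1739.8 CPM in proNeu2. Actb had 124 and 107 CPM in GMP-MoP and 226 and 218 CPM in proNeu2 (log2 fold change -0.95, SE 0.127, adjusted p = 1.31e-10). With offsets fitted to the level, 11 housekeeping regions were lower, and without GMP-MoP replicate 2 the lower ones numbered 8. The lower medians of the oxidase and later granule lists, -0.71 and -0.78, were thus beyond the -0.50 of the housekeeping list, a difference that was not tested. The part of a general shift in the lower calls of these lists was not tested.

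Receptor genes were lower at 22 and higher at 8 of 93 regions, with a median log2 fold change of -0.17. These shares were 23.7% and 8.6%, against 19.2% lower and 20.0% higher among all tested regions. The lower calls numbered 13 without GMP-MoP replicate 2, 12 without proNeu2 replicate 1 and 14 without proNeu2 replicate 2, and the higher ones 5 with offsets fitted to the level. Csf2rb is the shared β chain gene of the GM-CSF, IL-3 and IL-5 receptors. A linked region outside genes had 5.08 and 15.3 CPM in GMP-MoP and 31.6 and 23.2 CPM in proNeu2 (log2 fold change -1.35, SE 0.302, adjusted p = 0.000112). Tnfrsf1b, a TNF receptor gene, had 53.0 and 48.8 CPM in GMP-MoP against 3.04 and 3.98 CPM in proNeu2 at a gene body region (log2 fold change 3.83, adjusted p = 5.63e-22), and was called at 1 of its 9 regions. Cxcr4, the receptor gene that retains myeloid cells in the marrow, did not pass at its start, with 108 and 103 CPM in GMP-MoP and 104 and 112 CPM in proNeu2 (log2 fold change -0.03, SE 0.142, adjusted p = 0.89). A region outside Cxcr4 (chr1:128607791-128608812) had 27.6 and 32.3 CPM in GMP-MoP, against 1.22 and 1.33 CPM in proNeu2 (log2 fold change 4.49, adjusted p = 1.58e-16). The Tnfrsf1b region and the last Cxcr4 region were added with their values known.

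Genes of pathogen sensing and inflammation had 24 regions higher and 18 lower of 103, with a median log2 fold change of 0.35. These shares, 23.3% and 17.5%, were near the 20.0% and 19.2% of all tested regions. The calls by gene are descriptions, as 39.2% of all tested regions were called. The receptor genes went both ways: Tlr4, Tlr7 and Tlr9 had higher regions alone, Tlr1 and Tlr6 lower ones alone, and Tlr2 had 1 of each. Myd88, the adaptor gene shared by most of these receptors, was lower at its 1 tested region. Higher regions alone were also found at Il6, Il10, Ccl4, Cd40, Cd86, Nfkb1, Nlrp3 and Ptgs2, and lower ones alone at Tnf, Il1b, Ccl3 and Nfkbia. Il12b had 5 higher and 1 lower, Tnfaip3 had 1 of each, and Cxcl2 had no call. Tlr9, the receptor gene for unmethylated DNA, had 33.4 and 36.3 CPM at its start in GMP-MoP and 8.51 and 9.96 CPM in proNeu2 (log2 fold change 1.92, adjusted p = 1.05e-08). Tlr4, the endotoxin receptor gene, had 25.4 and 15.3 CPM at a gene body region in GMP-MoP, against 0.608 and 1.33 CPM, or 3 counts, in proNeu2. This is a ratio of 20.7 (95% exact counting interval 6.77 to 103, adjusted p = 3.12e-11). A region linked to Il1b, the interleukin-1β gene, lay outside genes and 42125 bases from it. That region had 5.08 and 7.37 CPM in GMP-MoP and 29.8 and 23.9 CPM in proNeu2 (log2 fold change -2.07, adjusted p = 1.59e-07). These 3 regions were picked with their values known. The highest-count regions of Tlr2 (adjusted p = 0.408), Tlr4 (0.2) and Cd40 (0.78) did not pass, and the lower calls of the list numbered 11 without proNeu2 replicate 1.

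Fc receptor and C-type lectin genes had 9 regions higher and 8 lower of 45. These shares, 20.0% and 17.8%, were near the 20.0% and 19.2% of all tested regions. Clec7a, the β-glucan receptor gene, had 24.0 and 28.9 CPM at its start in GMP-MoP and 11.6 and 10.6 CPM in proNeu2 (log2 fold change 1.26, SE 0.295, adjusted p = 0.000227). Fcgr4, an activating Fcγ receptor gene, was lower at 4 of 5 regions, and its start had 38.5 and 42.0 CPM in GMP-MoP and 96.7 and 77.0 CPM in proNeu2 (log2 fold change -1.11, adjusted p = 6.22e-08). Fcgr1, the high-affinity Fcγ receptor gene, went both ways. It was higher at a region outside genes with 25.4 and 27.8 CPM in GMP-MoP and 2.43 and 4.65 CPM in proNeu2 (log2 fold change 2.91, adjusted p = 6.68e-11). The Fcgr4 region and this Fcgr1 region were added with their values known. The highest-count region of Fcgr1, also outside genes, was lower, with 30.5 and 18.7 CPM in GMP-MoP and 31.0 and 39.8 CPM in proNeu2 (log2 fold change -0.55, adjusted p = 0.0499). That call was lost with offsets fitted to the level (adjusted p = 0.0912), with library totals (0.167) and in DESeq2 (0.297). The list's split was 4 higher and 7 lower without GMP-MoP replicate 2, 6 and 4 without proNeu2 replicate 1, 4 and 6 without proNeu2 replicate 2, 6 and 8 with offsets fitted to the level, and 9 and 4 with library totals.

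Dendritic cell and antigen presentation genes had 14 regions higher and 7 lower of 58, and with offsets fitted to the level 8 and 8. The shares with TMM were 24.1% and 12.1%, against 20.0% and 19.2% of all tested regions. Of the genes, 6 had higher regions alone (Ccr9, Cd74, Ciita, Flt3, Siglech and Xcr1). Another 5 had lower regions alone (Batf3, H2-DMa, H2-Eb1, Itgax and Spib), and Tcf4 had both. Siglech, a plasmacytoid dendritic cell receptor gene, had 55.2 and 52.2 CPM in GMP-MoP and 6.08 and 7.30 CPM in proNeu2 at chr7:55784158-55785224 outside genes (log2 fold change 2.99, SE 0.284, adjusted p = 4.07e-19). Ciita, the MHC class II transactivator gene, had 7.99 and 9.07 CPM in GMP-MoP and 1.82 and 1.33 CPM in proNeu2 (log2 fold change 2.38, SE 0.612, adjusted p = 0.000814). H2-DMa, a peptide-loading gene, was lower at its start, with 45.7 and 48.2 CPM in GMP-MoP and 94.2 and 94.9 CPM in proNeu2 (log2 fold change -1.01, adjusted p = 2.14e-07, chosen after its values were seen). The highest-count region of Zbtb46 did not pass (adjusted p = 0.171). Without GMP-MoP replicate 2 the list had 3 lower calls, and without proNeu2 replicate 1 it had 9 higher ones.

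Stem and early progenitor genes had 31 regions higher and 15 lower of 107 (29.0% and 14.0%, against 20.0% and 19.2% of all tested regions). Their median log2 fold change of 0.23 became -0.13 with offsets fitted to the level, where 19 were higher and 20 lower. Meis1 was higher at 7 of 10 regions, Mecom at 5 of 7 and Sox4 at all 3, and these are transcription factor genes of early progenitors. A region linked to Cd34, a progenitor surface marker gene, lay outside genes and 10171 bases from it. That region had 74.1 and 90.1 CPM in GMP-MoP and 38.9 and 33.2 CPM in proNeu2 (log2 fold change 1.19, SE 0.182, adjusted p = 1.47e-08). Erg, an ETS factor gene, was lower at 9 of 22 regions. Of these, chr16:95349392-95351011, outside genes, had 20.3 and 15.9 CPM in GMP-MoP against 77.8 and 71.0 CPM in proNeu2 (log2 fold change -2.06, adjusted p = 6.19e-16, chosen after its values were seen). The highest-count regions of Kit (adjusted p = 0.0721) and Gata2 (0.433) did not pass. The list's split was 20 and 9 without GMP-MoP replicate 2 and 19 and 8 without proNeu2 replicate 1.

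Cell cycle genes had 9 regions higher and 14 lower of 71 (12.7% and 19.7%). The lower share was near the 19.2% of all tested regions, and the higher share was below their 20.0%. The D-type cyclin genes differed, with Ccnd3 lower at 5 of 8 regions and Ccnd1 higher at 3 of 7. Ccnd3 had 28.3 and 24.4 CPM in GMP-MoP and 57.2 and 69.0 CPM in proNeu2 at 1 region (log2 fold change -1.26, adjusted p = 9.99e-08). Ccnd2 had 34.9 and 33.4 CPM in GMP-MoP and 14.0 and 11.9 CPM in proNeu2 at 1 region (log2 fold change 1.38, adjusted p = 8.02e-06). Both regions were picked with their values known. The highest-count region linked to the proliferation marker gene Mki67 lay outside genes and 18907 bases from it. That region had 77.7 and 70.9 CPM in GMP-MoP and 114 and 109 CPM in proNeu2 (log2 fold change -0.59, SE 0.15, adjusted p = 0.000717). Its call was lost with offsets fitted to the level (adjusted p = 0.0865). The list's split was 4 and 10 with offsets fitted to the level and 9 and 9 with library totals. It was 5 and 7 without GMP-MoP replicate 2, 5 and 8 without proNeu2 replicate 1, and 6 and 14 and 6 and 11 without the other replicate of each group. Interferon-stimulated genes had 6 regions higher and 8 lower of 33 (18.2% and 24.2%, against 20.0% and 19.2% of all tested regions). That split was 3 and 8 when replicate 1 of GMP-MoP was left out and 5 and 2 when its replicate 2 was. It was 3 and 6 without proNeu2 replicate 1, and 6 and 4 without proNeu2 replicate 2.

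Markers of other lineages were checked as a guide to other cells in the sorts. In bulk samples, fewer cells of a type and less accessibility per cell cannot be told apart. B cell genes had 9 tested regions, 3 higher and 2 lower, with a summed level of 74.1 and 70.9 CPM in GMP-MoP and 60.2 and 65.0 CPM in proNeu2, and Cd79a and Vpreb1 had none. T and NK cell genes had 3 higher and 6 lower of 20, with 279.6 and 274 CPM in GMP-MoP against 344 and 357 CPM in proNeu2, and Cd3e, Cd8a and Ncr1 had no tested region. Erythroid and megakaryocyte genes had 3 higher and 5 lower of 15, with 251 and 222 CPM in GMP-MoP and 252 and 264 CPM in proNeu2. Mast cell, basophil and eosinophil genes had 2 higher and 3 lower of 11, with 107 and 95.2 CPM in GMP-MoP and 126 and 136 CPM in proNeu2, and Epx, Prg2 and Fcer1a had no tested region. These small counts moved with the libraries and the scaling. The T and NK split was 1 and 3 both without GMP-MoP replicate 2 and without proNeu2 replicate 1, and 1 and 8 with offsets fitted to the level. The erythroid and megakaryocyte split was 3 and 1 without GMP-MoP replicate 2, 3 and 3 without proNeu2 replicate 1, 2 and 2 without proNeu2 replicate 2, and 3 and 2 with library totals. The mast cell, basophil and eosinophil split was 1 and 2 without GMP-MoP replicate 1 and 1 and 1 without proNeu2 replicate 1. It was 2 and 1 without the other replicate of either group or with library totals, and 1 and 4 with offsets fitted to the level. Their part in the results was not tested.

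Of the 47506 regions, 9484 (20.0%) stood higher in GMP-MoP than in proNeu2 and 9125 (19.2%) stood lower. Higher calls were larger: 8068 of them (17.0% of tested regions) reached a change of 2 fold or more, against 3990 of the lower ones (8.4%). The median absolute log2 fold change was 1.7 against 0.923. Higher calls lay at lower levels, with medians of 12.0 CPM in GMP-MoP and 3.46 in proNeu2, against 19.2 and 36.6 for lower calls. With offsets fitted to the level, the same regions had median log2 fold changes of 1.3 and -0.954. The part of level in this size difference was not tested. Regions in which both GMP-MoP libraries stood above both proNeu2 libraries made up 36.0% of those tested, and those in which both stood below made up 34.0%, or 70.0% together. For a single region an exact permutation test of 2 against 2 libraries cannot go below p = 0.333, so calls rest on the spread pooled over regions and groups. The counts depended on the scaling. With offsets fitted to the level in each library, 5626 regions (11.8%) were higher and 9438 (19.9%) lower, and with library totals alone 11596 (24.4%) and 6732 (14.2%) were. DESeq2 called 3489 (7.34%) higher and 3644 (7.67%) lower. Without GMP-MoP replicate 2 there were 5586 and 5174 calls, and without proNeu2 replicate 1 there were 6197 and 5950.

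The regions with the largest rises among linked regions of at least 10 CPM had no count in either proNeu2 library. The region near Pdcd1, the gene of the checkpoint receptor PD-1, had 18.9 and 15.3 CPM in GMP-MoP, which is at least 17.7-fold higher, taken against 3 counts over the group. A region in Pla2g4a, a cytosolic phospholipase gene, had 13.8 and 15.3 CPM in GMP-MoP and was at least 15.4-fold higher. A region near Myc had 14.5 and 7.94 CPM in GMP-MoP and was at least 11.4-fold higher. The others lay at Asb7, Btla, Rnf145, Tbxas1 and Hnmt, and were each at least 10.7-fold higher. In cMoP all 8 of these regions were open, with Pdcd1 at 24.8 CPM and Hnmt at 11.7 CPM on average, and in proNeu1 they averaged between 1.05 and 3.08 CPM.

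The largest falls lay at Cd200r3, Sncaip, Ckap2l, Myrip, Hmgn2, Abcb10, Sri and St3gal5, with 1 to 3 counts in GMP-MoP. The region near Hmgn2, which encodes a nucleosome-binding protein, had 0 and 1.70 CPM in GMP-MoP against 32.2 and 28.5 CPM in proNeu2, a ratio of 31.9 (95% exact counting interval 10.6 to 157, adjusted p = 1.39e-16). The region in St3gal5, a sialyltransferase gene, had 1.45 and 0.567 CPM in GMP-MoP and 23.1 and 19.2 CPM in proNeu2, a ratio of 22.3 (interval 7.30 to 111, adjusted p = 6.54e-12). The region in Cd200r3 had 0 and 0.567 CPM in GMP-MoP against 16.4 and 9.29 CPM in proNeu2, a ratio of 40.9, with an interval of 6.94 to 1653.2 since it rests on 1 count.

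Genes were ranked here by their number of calls, so these counts describe the choice and test nothing. With TMM, 5 genes were higher at most of their regions. Slc8a1, a sodium and calcium exchanger gene, was higher at 13 of 14 regions, Stxbp6 at 12 of 14, Maml2, a Notch coactivator gene, at 14 of 17, Ank2 at 12 of 15 and Slc9a9 at 14 of 18, with 0 regions lower in these 5 genes by edgeR, by DESeq2 or at an unadjusted p under 0.05 in edgeR. With offsets fitted to the level, 11 were higher at Slc8a1 and Stxbp6 each, 10 at Maml2, 9 at Ank2 and 8 at Slc9a9. On the lower side, Itpr2, an inositol trisphosphate receptor gene, was lower at 10 of 23 regions and Erg at 9 of 22. With these offsets they were lower at 11 and 10. A count of 8 lower regions each was found at Atrnl1, Gfod1, Igf1r, Prex1, Rps6ka1, Slc39a11, Slco4a1 and Tnrc6b. Igf1r also had 5 higher regions. Regions of a gene share their locus and are not independent.

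The fold change went with the level of a region and with its place. Regions were split by mean level into 4 bins of about equal size. In the lowest bin, up to 6.39 CPM, 31.2% were higher and 5.88% lower, whereas in the highest bin, from 24.4 CPM, 7.37% were higher and 41.8% lower. The median log2 fold change was 0.88 in the lowest bin and -0.35 in the highest. With offsets fitted to the level, these medians were 0.24 and -0.23. The filter on counts passed a region when any 2 libraries of the series had enough reads, whatever their group. A region of the lowest bin could thus pass only through libraries in which it was high, those of GMP-MoP among them. The shares of that bin therefore depend on the filter, and its part in their direction was not tested.

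**Figure D3:**
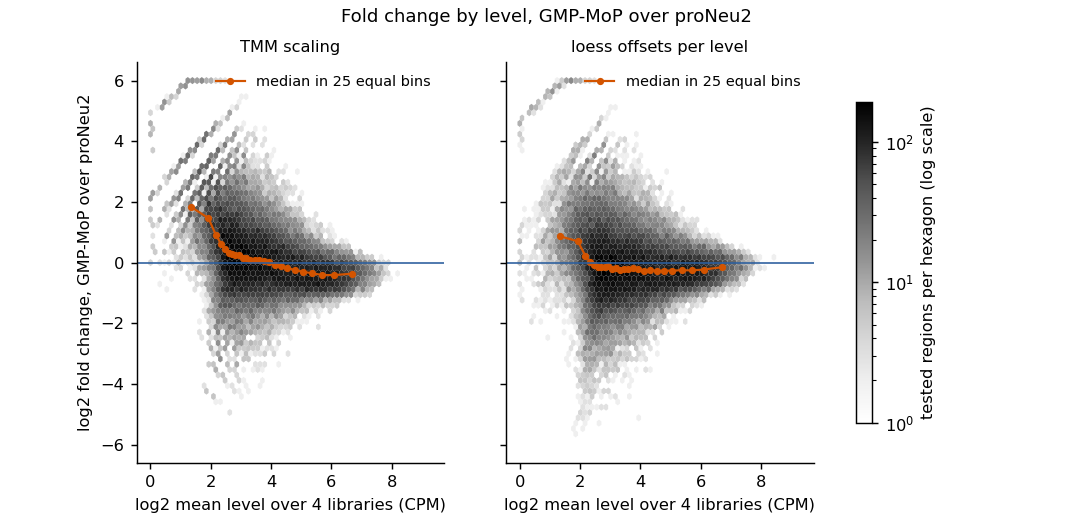
Log2 fold change of GMP-MoP over proNeu2 against the log2 mean level (CPM) of each tested region, with TMM scaling (left) and with offsets fitted to the level (right). Shading is the number of regions per hexagon on a log scale, the orange line joins medians of 25 bins of equal size, and values beyond 6 are drawn at 6. With TMM the medians run downward from low to high levels, and the offsets flatten most of that.

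Gene starts were more often lower, and distant regions more often higher. Of 9269 regions within 1 kb of a gene start (chromosome 18 left out, since the table of starts has none there), 37.0% were lower and 9.48% higher. Regions more than 50 kb from a start were 11.4% lower and 29.0% higher. The direction held with offsets fitted to the level, with 24.9% lower and 7.35% higher at gene starts, and 14.4% lower and 17.2% higher beyond 50 kb. Within bins of level the lower share did not always go this way. In the highest bin 47.3% of gene starts were lower, against 35.6% of regions away from them, and with offsets fitted to the level the shares there were 28.0% and 25.2%. In the third bin both shares were 18.8%, and in the lower bins gene starts were less often lower, with 47 of 731 against 1189 of 10818 in the second bin and 12 of 445 against 678 of 11068 in the lowest. Without GMP-MoP replicate 2 the gene starts held 1817 lower and 541 higher calls, against 3430 and 879 with all libraries.

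**Figure D4:**
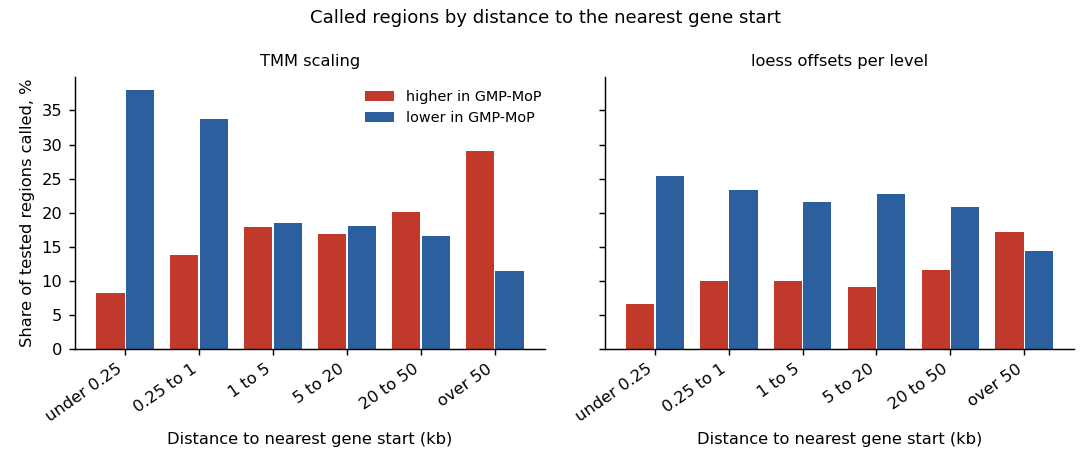
Share of tested regions (%) called higher (red) or lower (blue) in GMP-MoP by distance to the nearest gene start, with TMM scaling (left) and with offsets fitted to the level (right). Lower calls exceed higher calls near starts under both scalings, and higher calls exceed lower ones beyond 50 kb.

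The gene starts covered by called regions also differed in their letters. GC content averaged 61.1% in the 882 starts covered by a higher region, 63.7% in the 4336 covered by a lower region and 61.1% in the 5541 covered by a tested region with no call. The Sp and KLF core GGGCGGG was held by 46.0% of starts in higher regions, 58.2% in lower regions and 46.9% with no call, against 33.9% of all 21254 starts. The C/EBP core was held by 8.5%, 7.29% and 8.14%, and the PU.1 and ETS core by 15.2%, 13.1% and 13.5%. The IRF core, a pair of GAAA with 2 free bases between, was held by 3.74%, 2.24% and 3.36%. Both strands were searched, matches of different cores may overlap, and these shares are descriptions of 300-base windows.

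The cMoP and proNeu1 libraries, which enter no value of the GMP-MoP and proNeu2 groups, gave a second contrast of a monocytic with a neutrophilic progenitor, although the fit shares its estimate of the spread. Of the regions higher in GMP-MoP, 6370 (67.2%) were also higher in cMoP than in proNeu1, where 21.9% of all tested regions were higher, and these were 61.3% of the cMoP list. Of the regions lower in GMP-MoP, 6384 (70.0%) were also lower in cMoP than in proNeu1, where 20.6% of all were lower, and these were 65.3% of the cMoP list. Pearson's r of the fold changes across regions was 0.773, as a description, since regions are not independent. With offsets fitted to the level in both contrasts, 4554 regions were shared as higher, which is 80.9% of those higher in GMP-MoP and 38.7% of the cMoP list. Those shared as lower numbered 3605, which is 38.2% of those lower in GMP-MoP, against 70.0% with TMM, and 73.9% of the cMoP list. With these offsets the cMoP contrast called 24.8% of tested regions higher and 10.3% lower. Median levels of the higher regions were 12.0 CPM in GMP-MoP, 14.9 in cMoP, 5.25 in proNeu1 and 3.46 in proNeu2. Those of the lower regions were 19.2 CPM in GMP-MoP, 18.7 in cMoP, 31.5 in proNeu1 and 36.6 in proNeu2.

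Among the regions described above, the Ngp start averaged 1.88 CPM in cMoP and 38.2 CPM in proNeu1, and the Irf8 start averaged 31.4 CPM in cMoP and 4.50 CPM in proNeu1. The Ccnd2 region differed between GMP-MoP and proNeu2, but averaged 34.1 CPM in cMoP and 32.6 CPM in proNeu1 (log2 fold change 0.07, adjusted p = 0.834). Regions called in opposite directions numbered 43 among the higher and 4 among the lower ones, and this balance turned with offsets fitted to the level in both contrasts, where they numbered 7 and 33. The region near Pcdh7, a protocadherin gene, had 42.1 and 29.5 CPM in GMP-MoP and 22.5 and 16.6 CPM in proNeu2 (log2 fold change 0.84, adjusted p = 0.00359), against averages of 12.8 CPM in cMoP and 43.0 CPM in proNeu1. The region in Ube2cbp had 26.1 and 14.7 CPM in GMP-MoP and 11.6 and 8.63 CPM in proNeu2 (log2 fold change 0.96, adjusted p = 0.014), against averages of 1.33 CPM in cMoP and 16.3 CPM in proNeu1. The 2 regions were picked with their values known, and both calls were lost without GMP-MoP replicate 1 (adjusted p = 0.113 for Pcdh7 and 0.32 for Ube2cbp) and without proNeu2 replicate 2 (0.0931 and 0.132). In DESeq2 both were lost too (0.0831 and 0.18), and the Ube2cbp call was lost with offsets fitted to the level (0.139). At these regions GMP-MoP stood nearer to proNeu1 in level than cMoP did. They were picked among regions called lower in cMoP than in proNeu1 and higher in GMP-MoP than in proNeu2. Their order of levels thus follows in part from the choice and tests nothing.

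**Figure D5:**
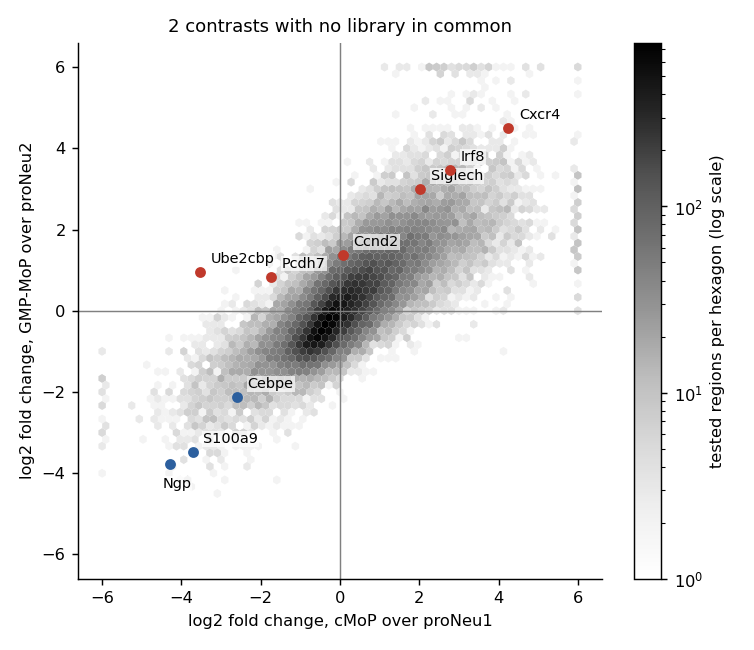
Log2 fold change of GMP-MoP over proNeu2 (vertical) against that of cMoP over proNeu1 (horizontal) for each tested region, with shading for the number of regions per hexagon on a log scale and values beyond 6 drawn at 6. Coloured points are named regions, red where higher in GMP-MoP and blue where lower. Most regions lie along the diagonal, with r = 0.773, and the regions at Ube2cbp and Pcdh7 lie in the upper left.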

How the data were processed

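ATAC-seq was measured in 8 libraries. The submitters' processing notes name the mm10 build, HOMER 4.11, edgeR 3.32.1 and Bowtie2 2.3.5.1, with no role given. The deposited values are whole-number read counts per region, made by the authors. How reads were shifted and filtered, and how regions were called, was not given in the sources used here. Totals cover these regions only, and intervals cover counting error only, since PCR reads are not independent molecules.

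The test was edgeR 4.0.16's robust quasi-likelihood F test in R 4.3.3, after TMM scaling and filterByExpr (minimum count 10), with all 8 libraries in the fit and group means as terms, and with Benjamini-Hochberg adjustment over 47506 regions. The SE was taken as log2 fold change over root F. Where a group had no count, 3 counts over that group served as floor. The script was tested on simulated data. Coordinates are mm10, 1-based. Regions were linked to RefSeq gene intervals (53897 regions, 88.1%), and gene starts and sequences came from RefSeq on GRCm38.p6. Replicates of proNeu2 differed from each other by little more than sampling noise (chi-square per degree of freedom 1.05, p = 1.41e-17, against 1.21 in GMP-MoP) and were counted as 2. In regions of at least 80 counts over the group it was 1.01 in proNeu2 (chi-square p = 0.182) and 1.38 in GMP-MoP. No spread beyond sampling noise was thus seen between the proNeu2 replicates there.

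Alternatives were DESeq2 1.42.0, other scalings, filters, sample sets, a replicate block and leaving out each library. Named regions were the 8 largest rises and falls of at least 10 CPM, the highest-count region of each example gene, the extreme called regions of the lists and the 5 genes a direction with most calls. Others are stated as chosen after their values were seen. The lists and the comparison were chosen with earlier results of these data known.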

Additional observations from a re-analysis of the deposited data

How the results depend on the processing

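With all libraries and TMM 9484 regions were higher and 9125 lower. DESeq2 called 3489 and 3644 (in the lists, 20 higher monocyte effector regions and 24 lower later granule regions), offsets fitted to the level by loess 5626 and 9438, library totals 11596 and 6732, and the 4 GMP-MoP and proNeu2 libraries alone 9217 and 9261. The share of calls that were higher was 51.0%, against 37.3% with loess offsets and 63.3% with library totals, and the median log2 fold change of all regions was 0.04, -0.14 and 0.19 in that order. Leaving out 1 library gave 5586 to 9571 higher and 5174 to 9181 lower regions. Counting the proNeu2 libraries as 1 sample gave 8760 and 8427. No call changed direction under any of the 17 alternatives, and 3132 higher and 3076 lower regions kept their call under all that tested them. Of 119 regions followed one by one through the alternatives, 100 were called, and 76 of these kept the call throughout. Many of the 119 had been picked for large changes or with their values known, so they do not stand for all calls. Of all 9484 higher and 9125 lower calls, 3132 and 3076 were kept. Regions lower in both GMP-MoP against proNeu2 and cMoP against proNeu1 numbered 6384, and 3605 with loess offsets, an alternative chosen after seeing the data. The cause of these shifts was not tested.

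The correlation of same-numbered deviations was 0.0155 between GMP-MoP and proNeu2. The proNeu2 replicates held hardly any spread past counting error, so this value cannot tell whether equal replicate numbers marked paired samples. With a replicate block 9461 regions were higher and 9302 lower.

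Regions of 8 genes without a call changed sign in the log2 fold change. With loess offsets the values were 0.18 for Cebpa, -0.01 for F13a1, 0.19 for Cxcr4, -0.20 for Cybb and -0.07 for Irf7. With library totals they were 0.14 for Cebpa, 0.06 for Ccr2 and 0.13 for Cxcr4, with the filter at 10 CPM they were 0.10 for Cebpa, 0.02 for Ccr2 and 0.08 for Cxcr4, and with no filter -0.01 for Cybb. Leaving out each library gave -0.27 to 0.25 for Cebpa, -0.47 to 0.05 for Cebpd, -0.29 to 0.12 for Ccr2, -0.04 to 0.44 for Ly6c2, -0.15 to 0.23 for F13a1, -0.06 to 0.02 for Cxcr4, -0.07 to 0.16 for Cybb and -0.06 to 0.30 for Irf7. Linking regions to genes within 10 kb left 33 higher of 102 monocyte effector regions and 28 lower of 52 later granule regions. Within 1 kb of a gene's start or of either end, 4 of 25 monocyte effector regions were higher and 1 lower. Their median log2 fold change was 0.19, and their higher share was below the 20.0% of all tested regions. Most of the 41 higher calls of that list thus lay farther away. Of 23 later granule regions within 1 kb, 15 were lower and 2 higher, with a median of -1.2. Where both groups held 3 counts or fewer no fold change is given, since depth limits it.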
